A study of Mus musculus with 6 samples.

Results

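The genes described here are 10 transcription regulators that guide invariant natural killer T (iNKT) cells and the choice between the CD4 and CD8 lineages: Zbtb16, Gata3, Zbtb7b, Runx3, Tox, Tbx21, Elf4, Myc, Id2 and Id3. They were given by name, and their rows were taken from the count table by symbol. All 10 are among its 43430 genes, and 9 of them have a row in the authors' normalized table of 16448 genes, the exception being Zbtb16. RNA was sequenced from CD4+CD8+ double-positive (DP) thymocytes, sorted from C57BL/6 mice at a purity above 98% per the labels, in 3 libraries of genotype Mettl14fl/fl; CD4-Cre+ (KO) and 3 of littermate controls labelled WT. The labels do not give the animals' age, the alleles carried by the controls, the floxed exons or whether libraries came from different animals, and p-values therefore cover only variation among the libraries, some of which may be technical. Mettl14 is the RNA-binding partner of Mettl3 in the methyltransferase that places N6-methyladenosine (m6A) on RNA. CD4-Cre is a transgene in which Cd4 control regions drive the recombinase from about the DP stage on, in cells of both lineages.

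DP thymocytes that are signalled through their T cell receptor move on to the CD4 lineage under Gata3, Tox and Zbtb7b (ThPOK), or to the CD8 lineage under Runx3. Cells selected on CD1d by neighbouring DP thymocytes become iNKT cells and switch on Zbtb16 (PLZF), with Tbx21 (T-bet) in their interferon-producing subset. Myc carries the expansion of iNKT precursors, Id2 and Id3 bind E proteins and hold them off DNA, and Elf4 is an Ets factor that restrains proliferation of T cells. The series title places the study in iNKT development, and the comparison below asks whether RNA of these regulators differed between genotypes before the lineages separate.

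None of the 9 members that could be tested passed the threshold of 0.05 in edgeR's quasi-likelihood test, with adjusted p-values from 0.747 to 0.896. Their log2 fold changes, KO minus WT, lay between -0.40 and 0.32, 4 above 0 and 5 below, with a median of -0.10 beside -0.0040 over all 13039 genes tested. Over all genes the test called 0.0383%. By DESeq2, which called 0.733% of the genes it gave an adjusted p, and by limma-voom, which called 0.0537%, the count of members was also 0. At an unadjusted edgeR p under 0.05 there were 0 members, where 6.72% of all genes lay, and 0 of the 9 had groups that did not overlap, which 12.6% of all genes had. In the authors' deposited table, with 0.762% of genes called, 0 members have an adjusted p under 0.05. In sorted but bulk cells, fewer cells with a transcript and less of it per cell cannot be told apart.

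Counts in genes ranged from 29500254 to 33377056 per library. Mettl14 was at 52.1, 58.8 and 55.8 CPM (counts scaled to library size and composition by TMM, replicates 1 to 3) in WT and at 42.2, 40.3 and 36.4 CPM in KO, 28.7% lower, without overlap (log2 fold change -0.49, SE 0.086, edgeR adjusted p = 0.289). It passed in DESeq2 (adjusted p = 0.00417) and in the authors' deposited table (-0.48, adjusted p = 0.00401). Reads from exons that the deletion leaves in place may be among these counts. The 13 DP markers summed to between 18081 and 19897 CPM in every library, led by Rag1, Cd8a, Dntt and Cd4. The library WT replicate 1 stood apart: 246 tested genes (1.89%) were more than 1.5-fold above every other library there, against 40 to 87 genes in each of the rest. Of the members this touches Id2 and Id3.

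Compared per kilobase of merged exon, the members spread over a wide range of levels. In WT, Id3 had the highest mean, 61.8 ± 19.3 CPM per kilobase (SD, n = 3), followed by Elf4 at 43.0 ± 3.92. Their libraries overlapped, with Id3 at 50.4 to 84.1 and Elf4 at 40.5 to 51.7 over all 6. Gata3 came next at 23.8 ± 1.40 CPM per kilobase and did not overlap either neighbour. Tox at 12.3 ± 0.811 and Myc at 11.4 ± 1.21 overlapped each other. Runx3 at 3.00 ± 0.774 and Id2 at 2.68 ± 1.90 also overlapped. Tbx21 at 0.528 ± 0.114 and Zbtb7b at 0.239 ± 0.0753 CPM per kilobase overlapped at the low end, above Zbtb16.

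**Figure D1:**
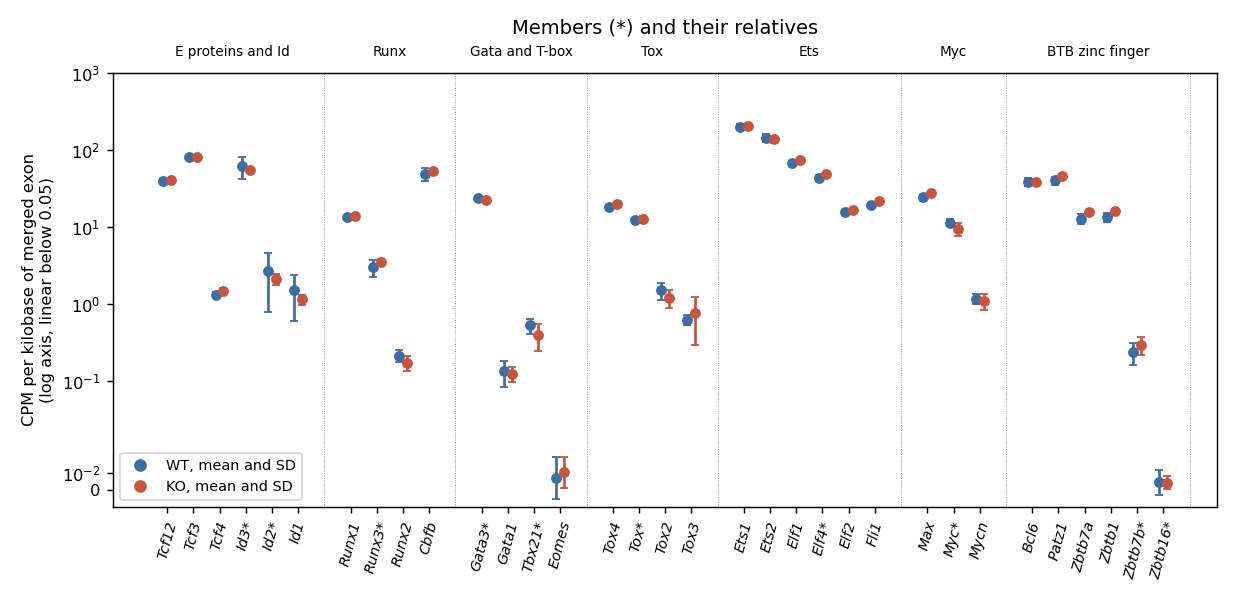
Mean level per kilobase of merged exon (log axis, linear below 0.05 CPM per kilobase, where values rest on a handful of counts) with SD over 3 libraries, for members (asterisk) and relatives, WT in blue and KO in red. Gata3 (23.8 in WT) stands far above Tbx21 (0.528), Runx1 (13.3) above Runx3 (3.00), and Zbtb16 lies at the bottom.

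Within families the members differed in rank from their relatives. Runx3 lay below Runx1, the Runx factor of earlier thymocytes, which was at 13.3 ± 0.233 CPM per kilobase in WT and 13.7 ± 0.823 in KO. Their shared partner Cbfb was at 49.0 ± 9.25 and 53.8 ± 2.35. Elf4 lay below its close relative Elf1 (68.4 ± 1.40 in WT) and below Ets1 (199 ± 15.3), the most abundant Ets factor on the list. Tox was somewhat below Tox4 (18.2 ± 0.954), and Tox2 was at 1.51 ± 0.378. The E proteins that the Id factors bind were abundant, Tcf3 (E2A) at 81.2 ± 0.922 and Tcf12 (HEB) at 38.9 ± 3.26 CPM per kilobase in WT.

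**Figure D2:**
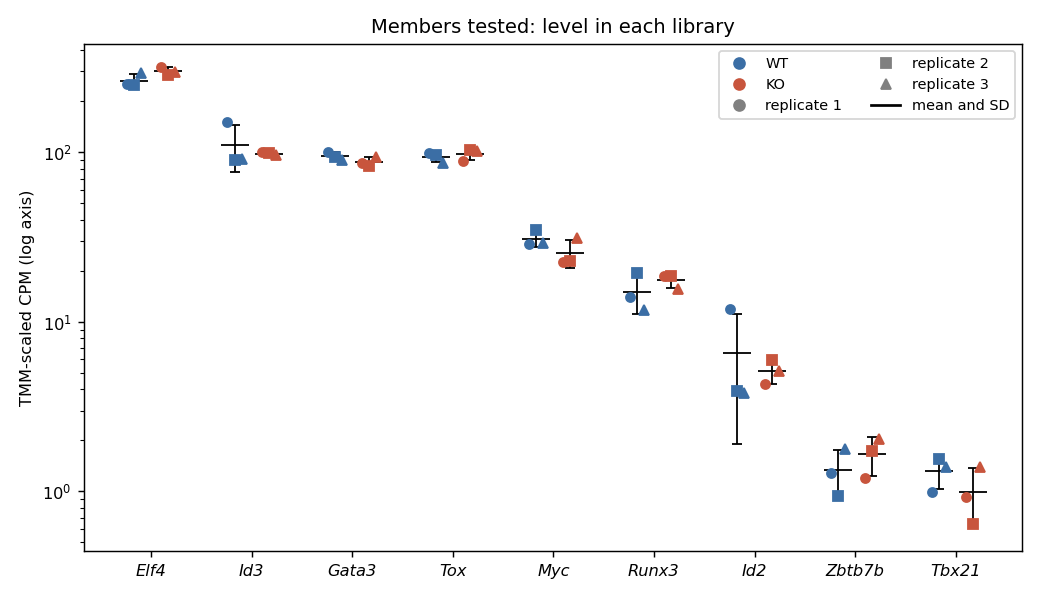
TMM-scaled CPM (log axis) of the 9 tested members in each library, WT in blue and KO in red, with the mean and SD of 3 libraries as black bars. WT and KO libraries overlap for every member, and WT replicate 1 lies above the other 5 libraries for Id3 (151 CPM) and Id2 (11.9 CPM).

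Zbtb16 (ENSMUSG00000066687, chromosome 9, 48654311 to 48835945, minus strand, mm10), the defining factor of iNKT cells, was at the limit of detection. It had 0, 0 and 2 counts in WT replicates 1 to 3 and 1, 1 and 0 counts in KO. The 2 counts of each group allow 0.242 to 7.22 counts (exact 95% Poisson interval, counting error only), or at most 0.0756 CPM in WT against 0.0778 CPM in KO. These limits are scaled by the group's total counts in genes, without TMM, unlike the other CPM values. Every library was under 3 counts, which is 0.0878 to 0.102 CPM depending on the library, so no fold change is given and a difference was not detectable at this depth. No other gene of the count table overlaps it. Klrb1c (NK1.1), a marker of mature iNKT cells, was similarly low, between 0 and 0.133 CPM, and Il4 had 0 counts in each library.

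Gata3 (ENSMUSG00000015619, chromosome 2, 9857078 to 9890034, minus strand), needed for entry into the CD4 lineage, was steady. It was at 101, 93.2 and 90.1 CPM in WT against 86.9, 83.4 and 94.0 CPM in KO. KO replicates 1 and 2 were below every WT library and KO replicate 3 was within their range. Its log2 fold change was -0.10 (SE 0.077, 95% interval -0.28 to 0.075, edgeR adjusted p = 0.812), and the interval spans 0.822-fold to 1.05-fold of WT. It was -0.15 to -0.057 with 1 library left out and -0.19 within replicates 1 and 2.

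Tox (ENSMUSG00000041272, chromosome 4, 6686353 to 6991557, minus strand), an HMG-box factor that CD4 and iNKT development require, was equally even. Its libraries were at 98.5, 95.9 and 86.7 CPM in WT against 89.2, 103 and 101 CPM in KO. KO replicates 2 and 3 were the highest of the 6, and KO replicate 1 the second lowest. For Tox the log2 fold change was 0.063 (SE 0.085, 95% interval -0.13 to 0.26, edgeR adjusted p = 0.896), the narrowest interval beside those of Gata3 and Elf4. It was 0.017 to 0.13 with 1 library left out, and -0.012 within replicates 1 and 2 alone.

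Zbtb7b (ENSMUSG00000028042, chromosome 3, 89377644 to 89394776, minus strand), the master factor of CD4 cells, is switched on after the DP stage, and its RNA was scarce. It was at 1.29, 0.939 and 1.78 CPM in WT against 1.19, 1.73 and 2.05 CPM in KO, from 31 to 66 counts per library. Only KO replicate 3 exceeded all WT libraries. The log2 fold change of 0.32 (SE 0.33, 95% interval -0.44 to 1.07, edgeR adjusted p = 0.861) leaves room for a change of up to 2.11-fold. It was 0.12 without WT replicate 2, 0.14 without KO replicate 3, 0.51 without KO replicate 1 and 0.58 without WT replicate 3. Gm15417, on the opposite strand, had at most 5 counts.

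Runx3 (ENSMUSG00000070691, chromosome 4, 135120652 to 135177990, plus strand) silences Cd4 in CD8 cells. It was at 14.0, 19.3 and 11.8 CPM in WT against 18.7, 18.5 and 15.6 CPM in KO, the KO libraries lying inside the WT range. Between genotypes the log2 fold change was 0.23 (SE 0.19, 95% interval -0.20 to 0.67, edgeR adjusted p = 0.833). Single WT libraries moved it: without WT replicate 2, the highest, the value was 0.45, and without WT replicate 3, the lowest, it was 0.090. The log2 ratio of Zbtb7b to Runx3 CPM, the balance of the opposed CD4 and CD8 factors, was -3.44, -4.36 and -2.73 in WT against -3.97, -3.42 and -2.93 in KO. Its means were -3.51 ± 0.820 and -3.44 ± 0.520 (SD, n = 3), a difference of 0.066, below the spread between libraries. It was -0.36 without WT replicate 2, -0.19 without KO replicate 3 and 0.46 without WT replicate 3.

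Other genes of the CD4 and CD8 programmes did not pass either. Of 14 genes listed beside the members, 13 were tested and 0 passed, 11 above 0 and 2 below, with a median log2 fold change of 0.059. Over all genes tested, 48.9% were above 0. Cd4 itself was at 1969 ± 171 CPM in WT against 2051 ± 183 CPM in KO, and Cd8a at 3114 ± 177 and 2993 ± 129 CPM. The lowest p belonged to Patz1 (MAZR), a zinc finger protein that holds Zbtb7b off in DP cells, at 238 ± 28.6 CPM in WT against 270 ± 16.9 CPM in KO (log2 fold change 0.18, SE 0.097, edgeR adjusted p = 0.767). Itgae, a gene that Runx3 supports in CD8 cells, was low, at 1.46 ± 0.278 and 1.20 ± 0.526 CPM.

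Tbx21 (ENSMUSG00000001444, chromosome 11, 97098071 to 97115331, minus strand) drives interferon gamma production in iNKT and T helper cells. It was at 0.995, 1.54 and 1.40 CPM in WT against 0.928, 0.644 and 1.39 CPM in KO, from 19 to 51 counts per library. KO replicates 1 and 2 were below all WT libraries and KO replicate 3 was within their range. The log2 fold change of -0.40 (SE 0.35, 95% interval -1.21 to 0.41, edgeR adjusted p = 0.840) was -0.17 without KO replicate 2, -0.27 without WT replicate 2, -0.73 without KO replicate 3 and -0.68 within replicates 1 and 2. Its relative Eomes had no more than 0.0878 CPM in a library, and the T-bet target Cxcr3 no more than 0.237 CPM.

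Many genes of the iNKT effector programme were too low to test. Of 19 listed beside the members, 10 passed the filter on low counts and 0 passed the test. Of the 10, 7 were above 0 and 3 below, where 48.9% of all genes were above 0. The groups of 1 did not overlap, beside 12.6% of all genes. That gene was Cd44, an activation and memory marker, at 11.1 ± 0.615 CPM in WT against 7.74 ± 1.77 CPM in KO (log2 fold change -0.52, SE 0.19, edgeR adjusted p = 0.713). Gzma, which encodes granzyme A, was at 34.3 ± 7.40 and 43.8 ± 4.93 CPM (0.36, SE 0.16), and the chemokine gene Ccl5 at 0.217 ± 0.129 and 0.597 ± 0.508 CPM (1.45, SE 0.79). Their edgeR adjusted p-values were 0.750 and 0.768. Single libraries moved both: Gzma was at 0.19 without WT replicate 1, and Ccl5 at 0.62 without KO replicate 3, which held 36 of its counts. The log2 fold change of Cd44 was -0.34 without KO replicate 1, its lowest library.

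Upstream regulators of iNKT precursors on the list all passed the filter on low counts in the DP libraries. Their levels differed, and Egr3 was low, at 2.72 ± 0.658 CPM in WT against 2.53 ± 0.943 CPM in KO. Of 19 listed and tested, 0 passed and 0 had groups that did not overlap, beside 12.6% of all genes. Of the 19, 13 were above 0 and 6 below, where 48.9% of all genes were above 0, and the median was 0.039. Ikzf1 (Ikaros) was at 907 ± 27.3 CPM in WT against 1011 ± 93.9 CPM in KO (edgeR adjusted p = 0.767). Egr2, which acts directly upstream of Zbtb16, was at 12.6 ± 1.90 and 14.9 ± 2.32 CPM (log2 fold change 0.24, SE 0.17, edgeR adjusted p = 0.802). Nr4a1 (Nur77), a readout of receptor signalling, was at 156, 56.3 and 74.3 CPM in WT against 54.7, 72.8 and 92.6 CPM in KO (log2 fold change -0.38, SE 0.36, edgeR adjusted p = 0.854). Without WT replicate 1 its log2 fold change was 0.17.

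Elf4 (ENSMUSG00000031103, chromosome X, 48411046 to 48463132, minus strand) had the lowest p of the members. It was at 252, 249 and 292 CPM in WT against 318, 286 and 299 CPM in KO. KO replicates 1 and 3 were above every WT library, while KO replicate 2 was below WT replicate 3. Elf4 had a log2 fold change of 0.19 (SE 0.083, 95% interval -0.0071 to 0.38), and did not pass (edgeR adjusted p = 0.747, unadjusted p = 0.0571). It is 0.20 in the authors' deposited table, where the adjusted p is 0.659. It stayed between 0.14 and 0.27 under the 16 alternatives run.

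Most Ets relatives of Elf4 were also above 0 without passing. Of 12 listed, 10 were tested, 0 passed, and 9 were above 0 (48.9% of all genes were), with a median of 0.097. The groups of 3 of them did not overlap, beside 12.6% of all genes. Elk4 was at 289 ± 9.70 CPM in WT against 329 ± 28.6 CPM in KO (edgeR adjusted p = 0.733), and Fli1 at 67.9 ± 1.55 and 75.7 ± 2.83 CPM (edgeR adjusted p = 0.733). Of 11 quiescence genes tied to Elf4 or acting beside it, all 11 were tested and 0 passed, 6 above 0 and 5 below. Klf2 and Klf4, which Elf4 activates in mature CD8 T cells, were at 4.57 ± 0.868 and 1.70 ± 2.10 CPM in WT against 2.89 ± 1.58 and 0.585 ± 0.165 CPM in KO. For Klf4 the WT mean rests on WT replicate 1 at 4.13 CPM, and without it the log2 fold change was 0.24. Cdkn1a (p21), which inhibits cyclin-dependent kinases, had 0.656 ± 0.125 and 1.80 ± 0.654 CPM, and differed by 1.45 on the log2 scale (SE 0.34, edgeR adjusted p = 0.488). Btg2, an antiproliferative gene, was at 633 ± 82.9 and 784 ± 61.2 CPM (0.31, SE 0.11, edgeR adjusted p = 0.695). Btg2 passed in 1 alternative, chosen after seeing the data: DESeq2 with replicate 3 set apart as a block gave 0.32 with an adjusted p of 0.00455. That fit matched the authors' deposited log2 fold changes within 0.001 for 15437 of 16448 genes.

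Myc (ENSMUSG00000022346, chromosome 15, 61985341 to 61990374, plus strand), which drives growth and expansion, was at 28.8, 34.8 and 29.3 CPM in WT against 22.6, 23.0 and 31.1 CPM in KO. KO replicates 1 and 2 were below every WT library and KO replicate 3 was within their range. The log2 fold change was -0.28 (SE 0.15, 95% interval -0.61 to 0.060, edgeR adjusted p = 0.767, unadjusted p = 0.0945). In the authors' deposited table it is also -0.28, adjusted p = 0.790. It was -0.48 within replicates 1 and 2 and -0.44 without KO replicate 3. Within replicates 1 and 2, Myc and Elf4 were the 2 of 9 members with an unadjusted edgeR p under 0.05, where 9.62% of genes lay, and their adjusted p-values were 0.419 and 0.475.

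**Figure D3:**
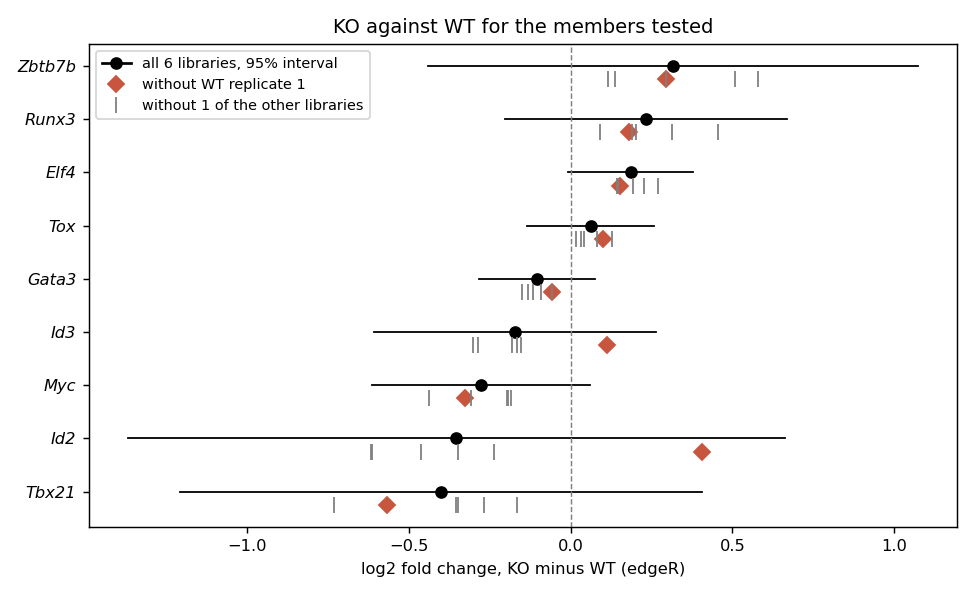
Log2 fold change of each tested member, KO minus WT, with its 95% interval (black), and the values without WT replicate 1 (red diamonds) or without each other library (grey ticks). Every interval holds 0, and the red diamonds lie on the other side of 0 for Id2 (0.41) and Id3 (0.11).

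The Myc network and genes that Myc is known to activate were described from lists. Of 12 network genes beside Myc 11 were tested, 0 passed, and 8 were above 0, with a median of 0.11. Mlx, a partner of Myc-related factors, was at 72.8 ± 5.43 CPM in WT against 84.0 ± 2.36 CPM in KO (edgeR adjusted p = 0.713), and the Myc antagonist Mxd1 at 44.7 ± 2.86 and 50.5 ± 2.19 CPM (edgeR adjusted p = 0.739). Max, the obligate partner of Myc, was at 86.8 ± 7.63 and 98.3 ± 8.17 CPM. Of 20 Myc target genes 0 passed, with 15 below 0, 5 above and a median of -0.090. Among all genes tested, 48.9% were above 0. Polr1b, a subunit of RNA polymerase I, was at 15.4 ± 1.90 CPM in WT against 12.3 ± 0.197 CPM in KO (edgeR adjusted p = 0.715), and Odc1, the first enzyme of polyamine synthesis, at 36.9 ± 4.73 and 30.9 ± 1.91 CPM. Ccnd2 (cyclin D2) had its higher mean in KO, at 4.51 ± 0.955 and 7.86 ± 3.04 CPM (log2 fold change 0.80, edgeR adjusted p = 0.713). KO replicate 3 was its highest library, at 11.3 CPM, and without it the value was 0.44.

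Id2 and Id3 were the members that stood highest by over 1.5-fold in the same library, WT replicate 1. Their RefSeq promoter windows (GRCm38.p6), the 250 bases before the start, are shown for that reason, with matches in capitals to CANNTG (the E-box that E proteins and Myc bind), CCAAT (bound by NF-Y), TATAA (which marks some core promoters) and TGACG (the core of sites for CREB and related factors), searched on both strands. CACGTG and GCGNGGGCG were searched as well, the former being a form of CANNTG. The Id2 window is chr12:25096093-25096342 on the minus strand, and the Id3 window is chr4:136143572-136143821 on the plus strand. The whole Id3 window lies inside the Id3 gene as counted, which begins at 136143497. Its matches are therefore upstream of the RefSeq start, not of the counted gene.
Id2: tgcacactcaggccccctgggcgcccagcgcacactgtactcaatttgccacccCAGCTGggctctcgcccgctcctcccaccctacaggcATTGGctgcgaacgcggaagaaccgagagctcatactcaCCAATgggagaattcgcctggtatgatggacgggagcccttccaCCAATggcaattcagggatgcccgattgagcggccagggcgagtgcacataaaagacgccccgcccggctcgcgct
Id3: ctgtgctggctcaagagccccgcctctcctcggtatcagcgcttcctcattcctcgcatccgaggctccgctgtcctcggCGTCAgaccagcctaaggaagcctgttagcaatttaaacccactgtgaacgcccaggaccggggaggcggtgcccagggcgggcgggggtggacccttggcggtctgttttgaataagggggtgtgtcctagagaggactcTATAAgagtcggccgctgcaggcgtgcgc
The Id2 window held 1 E-box and 3 CCAAT matches, and the Id3 window 1 TATAA and 1 TGACG match. Of 32851 promoter windows of that length, 66.2% held CANNTG, 33.8% CCAAT, 22.8% TATAA, 17.8% TGACG, 6.02% CACGTG and 4.70% GCGNGGGCG. The windows shared no match to these motifs. The table gave windows for 7 of the 10 members.

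Id3 (ENSMUSG00000007872, chromosome 4, 136143497 to 136145755, plus strand), which receptor signalling induces and which restrains the iNKT fate, was at 151, 90.3 and 91.2 CPM in WT against 100.04, 98.5 and 96.0 CPM in KO. WT replicate 1 was above the other 5 libraries, and the 3 KO libraries lay between it and the remaining WT libraries. Id3 had a log2 fold change of -0.17 (SE 0.19, 95% interval -0.61 to 0.26, edgeR adjusted p = 0.869). Without WT replicate 1 the sign turned, to 0.11 (SE 0.063, edgeR adjusted p = 0.702).

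Id2 (ENSMUSG00000020644, chromosome 12, 25093801 to 25096092, minus strand), the Id factor of effector and innate lymphocytes, had the same pattern at a lower level. It was at 11.9, 3.91 and 3.83 CPM in WT against 4.31, 5.96 and 5.11 CPM in KO. Its log2 fold change of -0.35 (SE 0.44, 95% interval -1.37 to 0.66, edgeR adjusted p = 0.886) became 0.41 (SE 0.21, edgeR adjusted p = 0.678) without WT replicate 1. In that comparison the KO libraries were all above the remaining WT libraries for Id2 and Id3 and all below them for Tbx21, so 3 of 9 members did not overlap, against 25.2% of all genes. The adjusted p-values stayed far from the threshold, and 0.0605% of genes were called.

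WT replicate 1 was also high for genes of the immediate early response, chosen for comparison after the values were seen. Fos was at 83.7 CPM there and at 2.54 to 7.69 CPM elsewhere, and Jun at 155 against 7.75 to 16.6 CPM. Dusp1 was at 78.5 against 14.8 to 21.4 CPM, Nr4a1 at 156 against 54.7 to 92.6 CPM and Egr1 at 114 against 64.5 to 90.8 CPM. Over the median of the other 5 libraries these are 21.3-fold, 15.8-fold, 4.31-fold, 2.14-fold and 1.58-fold, where Id2 was at 2.76-fold, Id1 at 2.33-fold and Id3 at 1.57-fold. Myc, also known as an early response gene, was at 0.981-fold. The part of the early response in the Id values was not tested.

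**Figure D4:**
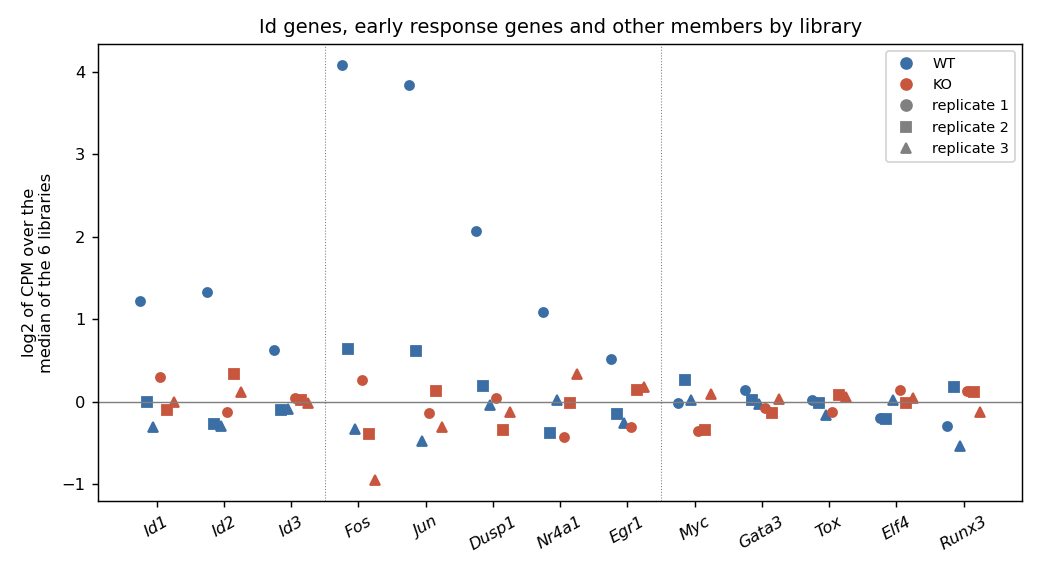
Log2 of each library's CPM over the median of the 6 libraries, for Id genes (left), early response genes (middle) and other members (right), WT in blue and KO in red. WT replicate 1 (blue circle) is the highest library for every gene left of the second dotted line, and is not set apart for Myc, Tox, Elf4 or Runx3.

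The ratio of E proteins to Id factors was lowest in that library. Summed Tcf3 and Tcf12 CPM were 6.02, 9.38 and 9.84 times the summed Id2 and Id3 CPM in WT against 9.06, 8.93 and 9.78 times in KO. The mean log2 ratio was 3.04 ± 0.391 in WT and 3.21 ± 0.0704 in KO (SD, n = 3). Their difference of 0.17 became -0.055 without WT replicate 1. Id3 exceeded Id2 in counts by 12.7, 23.1 and 23.8 times in WT and by 23.2, 16.5 and 18.8 times in KO. Of 7 E protein and Id genes beside the members 6 were tested and 0 passed, 4 above 0 and 2 below. Tcf4 (E2-2) was at 36.2 ± 2.65 and 40.7 ± 3.15 CPM, and Lyl1 at 0.447 ± 0.0281 and 0.347 ± 0.0723 CPM. Id1 was at 1.75 ± 1.05 and 1.34 ± 0.195 CPM, and its log2 fold change of -0.39 was 0.22 without WT replicate 1.

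Relatives of the other members gave 0 calls as well. Of 10 Runx, Gata, T-box and Tox relatives 7 were tested, with 5 above 0 and a median of 0.14. Tox4 was at 127 ± 6.63 CPM in WT against 140 ± 5.22 CPM in KO without overlap (edgeR adjusted p = 0.750), and Zfpm1 (FOG-1), a cofactor of Gata proteins, at 67.6 ± 13.2 and 80.0 ± 13.5 CPM. Of 12 BTB zinc finger relatives 11 were tested, with 9 above 0 and a median of 0.10. The groups of 3 of these did not overlap, beside 12.6% of all genes, and 48.9% of all genes were above 0. Zbtb7a (LRF), the closest relative of Zbtb7b, was at 86.9 ± 12.1 CPM in WT against 105 ± 1.30 CPM in KO (log2 fold change 0.27, SE 0.10, edgeR adjusted p = 0.713), and Zbtb1 at 165 ± 21.3 and 195 ± 2.61 CPM (0.25, SE 0.096, edgeR adjusted p = 0.715). Over the 10 lists together, leaving out the members, 111 genes were tested, 0 passed and 10 had an unadjusted p under 0.05 (9.01%, beside the 6.72% of all genes).

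RNA from other lymphocytes could add to the low members, since innate and mature T cells express Id2, Tbx21, Runx3 and Zbtb7b. The 11 iNKT and innate markers summed to 28.2 to 43.6 CPM in WT against 44.1 to 54.0 CPM in KO, mostly from Gzma, with Ncr1 at or under 3 counts in every library. The 7 gamma-delta markers with a row summed to 3.45 to 4.45 CPM in WT against 7.01 to 8.37 CPM in KO, with Il17a at 0. The 11 mature single-positive markers summed to 624 to 768 and 621 to 692 CPM, and the 7 double-negative markers to 10.3 to 15.8 and 12.1 to 19.2 CPM. B cell, myeloid, stromal and red cell markers had sums of 797 to 884, 87.0 to 92.3, 153 to 180 and 0.0683 to 0.606 CPM in WT, against 802 to 846, 90.2 to 114, 149 to 160 and 0.169 to 0.465 CPM in KO. Of these lists 0 genes were called by edgeR. At an unadjusted edgeR p under 0.05 there were 3 of 5 tested gamma-delta markers (median log2 fold change 0.96), 2 of 6 iNKT and innate markers (0.77), 2 of 6 myeloid markers (0.60) and 2 of 5 B cell markers (0.14), beside 6.72% of all genes. So were 1 of 3 tested stromal markers (-0.052) and 2 of 13 DP markers (0.050). Of the mature single-positive and double-negative lists there were 0, with 11 and 4 markers tested. The sums of the gamma-delta and the iNKT and innate lists did not overlap between the groups, and Foxn1 and Pdgfra of the stromal list had 0 counts. The part of such cells in the members' levels was not tested.

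As a description with no test, the listed gene most like each member over the 6 libraries (Pearson's r of log2 CPM, from 93 or 94 candidates of sufficient level) was Apex1 for Myc (0.941), Zbtb7a for Elf4 (0.940) and Sh2d1a for Zbtb7b (0.931). It was Npm1 for Tbx21 (0.916), Icos for Tox (0.793), Lef1 for Runx3 (0.782) and Nr4a1 for Gata3 (0.718). For Id2 it was Btg1 (0.971) and for Id3 Cd1d1 (0.917), where WT replicate 1 sets the pattern. WT replicate 1 was also the highest library for Gata3 (101 CPM) and Nr4a1 (156 CPM). All these matches are the best of many candidates over only 6 shared libraries.

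Because Mettl14 acts on RNA sequence, the longest coding transcript of each member (GENCODE M21) was searched on the sense strand for GGACT, a common form of the m6A consensus. Myc held 6 matches in 2338 bases, more than 93.5% of the coding transcripts within 10% of its length, of which 91.2% held at least 1. Elf4 held 8 in 6088 bases, Zbtb7b 7, Tbx21 5, Id2 4, and Id3, Gata3, Runx3 and Zbtb16 3 each. Tox held 2 in 3961 bases, where 97.6% of transcripts of like length held at least 1. Per kilobase, Myc (2.57), Id3 (2.35), Id2 (2.03), Tbx21 (2.01) and Zbtb7b (1.62) were above the upper quartile of the tested coding genes (1.52), and Zbtb16 (0.587) and Tox (0.505) were below the lower quartile (0.637). A match shows the letters only, and methylation was not measured here.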

How the data were processed

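RNA was sequenced from sorted thymocytes after TruSeq library preparation, per the labels' protocols. The submitters' processing notes name mm10, Trimmomatic 0.33, STAR 2.5.2, HTSeq and DESeq2. How HTSeq was set (mode, strand, annotation release) is not given in the sources used here. The authors deposited raw counts per gene, which were used for all tests. The authors' deposited normalized signal equals the counts over a size factor for every library. Their deposited log2 fold changes and p-values come from a fit named as paired, and were matched within 0.001 for 15437 of 16448 genes by DESeq2 with replicate 3 set apart from replicates 1 and 2, against 4064 without a block. The authors' deposited Wald score was not used.

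Rows naming no gene were left out: reads without a feature were 12.3% to 15.2% of those counted, and reads with several alignments 22.6% to 23.9%. Counts in genes ranged from 29500254 to 33377056 per library, and intervals from counts cover counting error only. Symbols were found for 42464 of 43430 genes. Testing used edgeR 4.0.16 (TMM, filterByExpr, quasi-likelihood test on genotype, two-sided, Benjamini-Hochberg over 13039 genes, threshold 0.05) in R 4.3.3, with SE as the log2 fold change over the root of F and 95% intervals from its t quantiles. DESeq2 1.42.0 and limma-voom (limma 3.58.1) were alternatives, beside other scalings, filters, blocks and leaving out libraries. The fits were checked on simulated data. Levels per kilobase used merged exons of GENCODE M21. This replaced the deposited length, which for many genes with several transcripts was seen to equal their summed length. The genes named are the members, Mettl14 and the 3 genes of lowest p in each of 10 lists, with relatives and early response genes named after their values were seen. The members and lists were chosen with earlier results of these data known.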

Additional observations from a re-analysis of the deposited data

How the results depend on the processing

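Members called stayed at 0 under all 16 alternatives, where their smallest adjusted p was 0.263, and 141 of 144 member values kept their sign. Genes called numbered 5, against 110 with DESeq2, 121 with DESeq2 and the block that sets replicate 3 apart (chosen after seeing the data), 30 without a filter on low counts and 4 to 23 when 1 library was left out (8 without WT replicate 1, 23 without WT replicate 3, 14 without KO replicate 2). The DESeq2 fit with that block also called 1 of the listed genes, Btg2 (adjusted p = 0.00455). The cause of these differences was not tested. Signs turned for Tox within replicates 1 and 2 (-0.012), and when libraries were left out for Id2 (-0.62 to 0.41), Id3 (-0.30 to 0.11), Id1 (-0.65 to 0.22), Klf4 (-1.99 to 0.24) and Nr4a1 (-0.65 to 0.17), each without WT replicate 1. Of 25 listed genes named, 16 moved by over 1.5 times or turned when 1 library was left out. The difference in the Zbtb7b to Runx3 log2 ratio ranged from -0.36 to 0.46. With the replicate number as a block, 5 genes and 0 members were called. Deviations of libraries with the same number correlated at -0.149, 0.0796 and 0.192. The last, for replicate 3, was the highest of any WT and KO pairing, and the lowest was -0.282. The labels do not say that the numbers pair libraries, and the main fit did not use them so. Members at 1 CPM per kilobase or more in WT numbered 7 with either length, and 9 were at 1 CPM or more. Zbtb7b and Tbx21, at 19 to 66 counts per library, have the least precise values of the members tested beside Id2.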

Other observations

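For most genes with several transcripts, the gene length deposited beside the counts is not the length of the gene's merged exons. Of 19686 such genes in GENCODE M21 it equals the summed length of all transcripts for 10153, the merged exon length for 107 and neither for the rest. For Myc it is 14581 bases against 2717 of merged exon, and for Zbtb7b 17952 against 5591. With the deposited length, Myc in WT would be at 2.12 CPM per kilobase in place of 11.4 and would fall beside Runx3 (2.10), and Elf4 would be at 19.8 in place of 43.0, close to Gata3 (17.3). Id2 would move the other way, since its deposited length is 1270 bases against 2438 of merged exon. In WT it would be at 5.15 CPM per kilobase in place of 2.68, above Runx3 and Myc. Fold changes between the genotypes do not use the length.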
